A study of Arabidopsis thaliana with 6 samples.

Results

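Chromatin sites of HA-tagged WDR5A were mapped in whole Arabidopsis thaliana seedlings, and the sites described here are those that fell inside genes for non-coding RNA. Such RNAs are not translated: tRNAs carry amino acids to the ribosome, snRNAs build the spliceosome, snoRNAs guide the modification of other RNAs, miRNAs direct silencing, and long non-coding RNAs (lncRNAs) are a mixed class, most of unknown function. Most plant mRNA, lncRNA and miRNA genes are transcribed by RNA polymerase II, whereas tRNA genes and U6 snRNA genes are transcribed by RNA polymerase III. WDR5A is the plant homologue of WDR5, a scaffold of the COMPASS-like complexes that place methyl groups on histone H3 lysine 4, a mark of active polymerase II promoters. PKL (PICKLE) is a chromatin remodeller of the CHD3 type.

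The study comprised 3 immunoprecipitated (IP) and 3 input libraries from 9-day-old seedlings in continuous white light, all with the genotype label WDR5A-HA_pkl. All of them thus share the tag and whatever pkl stands for in that label. The sources used here give no promoter for the tag. IP titles say PKL_WT and input titles PKL_jaw-5D, which differs from the descriptions, so bait and genotype rest on the descriptions and the genotype label. The IP libraries had 1 list of peak summits each, with 10864, 10408 and 10826 summits in replicates 1, 2 and 3. Inputs were not analysed here, the number of reads is unknown, and no second genotype was compared.

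The regions were chosen by the called summits themselves. Summits of the 3 lists no more than 250 bp apart were chained, groups with a summit in every list were kept and placed at their median summit, and a group was taken when that position lay inside a gene of 6 annotated classes (lncRNA, tRNA, ncRNA, snRNA, snoRNA and miRNA) and outside every protein-coding gene. This gave 289 regions, 4.32% of the 6684 regions found in all 3 lists and 8.26% of the 3497 that lay outside protein-coding genes. The strength of a summit is its −log10 q as deposited. It grows with sequencing depth as well as with enrichment, so it ranks summits within a list. Because the summits made the choice, counts and strengths below are descriptions and no test was run on them.

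Most of the regions belonged to lncRNA and tRNA genes. There were 172 regions in lncRNA genes, 105 in tRNA genes, 11 in genes typed only as ncRNA, 2 in snRNA genes, 1 in a snoRNA gene and 0 in miRNA genes, with 2 regions counted under both lncRNA and ncRNA. Of the 3856 genes of these classes with sequence outside protein-coding genes, 308 held a region, 7.99%. Of all 27444 protein-coding genes, 11.1% held a region of all 3 lists within the gene. Against the 7.99%, tRNA genes stood at 18.2% (105 of 576), lncRNA genes at 7.40% (189 of 2553), ncRNA genes at 5.19% (11 of 212), snRNA genes at 3.70% (2 of 54) and snoRNA genes at 0.483% (1 of 207). None of the 254 miRNA genes held one. A region in overlapping lncRNA genes counted for each gene, which was so for 19 regions. Gene lengths differ between classes, and per 100 kb of gene sequence outside protein-coding genes the order was another one: tRNA genes held 241.7 regions, snRNA genes 20.9, lncRNA genes 19.4, ncRNA genes 5.16 and snoRNA genes 4.75. All sequence outside protein-coding genes held 6.40 regions per 100 kb.

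**Figure D1:**
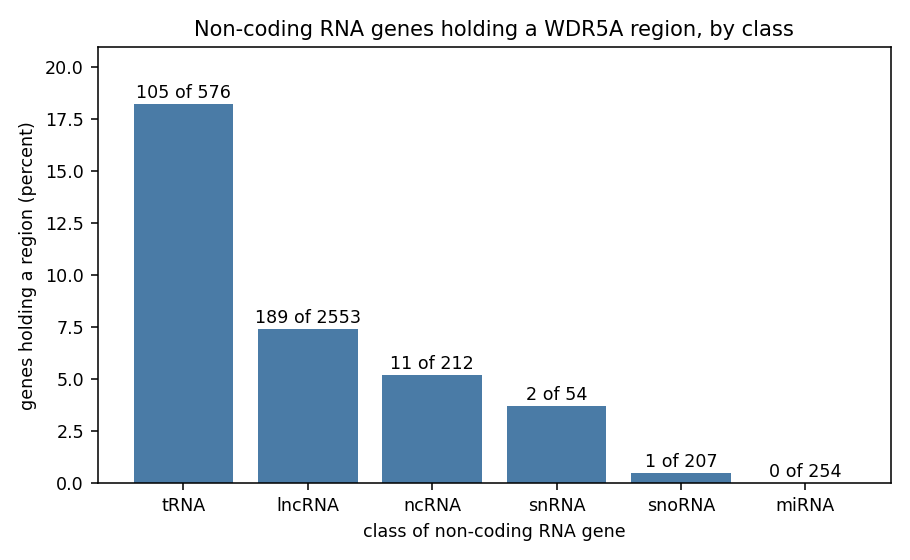
Percent of the genes of each non-coding class (x axis) that held a WDR5A region found in all 3 lists (y axis), among genes with sequence outside protein-coding genes, with the numbers above the bars. tRNA genes stood highest at 18.2%, and miRNA genes had none.

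The 3 lists gave nearly the same totals one by one, though not all at the same sites. Beside the 289 regions, 114 in such genes had a summit in only 2 lists and 125 in 1 list. In replicates 1, 2 and 3, 401, 401 and 402 summits met the positional rule, a mean of 401.3 ± 0.577 (SD, n = 3). Of these, 140, 150 and 147 lay in tRNA genes (145.7 ± 5.13, SD, n = 3) and 233, 223 and 226 in lncRNA genes (227.3 ± 5.13, SD, n = 3). The median span of the 3 summits of a region was 44 bp, against 58 bp in the other 6395 regions, and no region held more than 1 summit per list. Among those others the median span was 67 bp inside protein-coding genes, 55 bp within 500 bp of one and 45 bp farther out. The short span was thus not particular to the 289. Across the 289 regions strength in one list against another gave Spearman coefficients between 0.746 and 0.776, against 0.738 and 0.760 across the other regions. Regions are not independent replicates, so these coefficients describe the lists only.

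tRNA genes were marked closely at the gene itself. They are 69 to 90 bp long, with a median of 73 bp, yet 131 regions lay within 50 bp of a tRNA gene midpoint, 21.0 per 100 genes. The number fell off to 46 between 50 and 100 bp, 22 between 100 and 150 bp and 3 between 200 and 250 bp. Between 500 and 1000 bp no 50 bp bin held more than 0.800 regions per 100 tRNA genes. The same first bin held 2.304 regions per 100 lncRNA gene positions, 2.44 per 100 snRNA genes, 0.348 per 100 snoRNA genes and 0.309 per 100 miRNA positions. The regions inside tRNA genes lay a median of 18.5 bp from the midpoint and at most 41 bp from it. These 2 values are bounded by the rule, since a position inside so short a gene cannot lie farther out. They do not show that regions centre on the gene. In 83 of the 105 the 3 summits spread over no more than the length of the gene. The median span of all 6684 regions, 57 bp, was also shorter than the median tRNA gene.

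**Figure D2:**
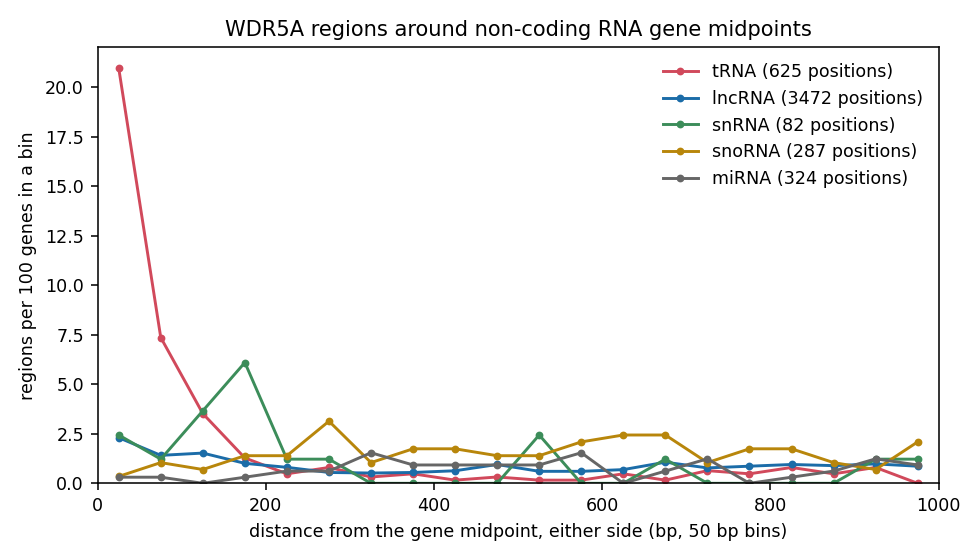
Number of WDR5A regions per 100 genes (y axis) in 50 bp bins of distance from the gene midpoint to either side (x axis), 1 line for each of 5 classes of non-coding gene (genes typed as ncRNA are not drawn). The tRNA line starts at 21.0 and is below 1 from 200 bp outwards, and the other lines stay under 7 throughout.

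The tRNA regions were of medium strength. Their median −log10 q was 8.57, 7.99 and 8.22 in replicates 1, 2 and 3, against 9.78, 8.55 and 9.04 in all regions outside the 289. Their means ran from 2.98 to 19.7, 63 of the 105 lay below the median of all 6684 regions (9.12), and none was among the strongest 5% of them (334 regions, mean of at least 32.5). The strongest was in the lysine tRNA gene AT5G14035, at position 4530518 of chromosome 5 (TAIR10), with 18.3, 19.9 and 20.9 in replicates 1, 2 and 3. It was followed by the proline tRNA gene AT3G27825, with 20.6, 20.9 and 17.035 at position 10318314 of chromosome 3. The third, the valine tRNA gene AT5G09655, had 20.5, 15.4 and 22.0 at position 2993363 of chromosome 5. The weakest was the leucine tRNA gene AT3G52955, at 2.40, 1.95 and 4.58, where the summit group sat on an end base of the gene as the table gives it. Their nearest protein-coding genes were PHT3;1, a mitochondrial phosphate transporter gene, 125 bp away, RPL12-A, a plastid ribosomal protein gene, 141 bp away, PMDH2, a peroxisomal malate dehydrogenase gene, 48 bp away, and AT3G52950, 283 bp away.

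Regions occurred in tRNA genes for each of the 20 amino acids. Lysine tRNA genes had the highest share, 12 of 28 genes (42.9%), followed by tryptophan with 5 of 14 (35.7%), glutamine with 5 of 16, methionine with 6 of 21 (28.6%) and alanine with 9 of 32 (28.1%). Proline, second in number together with alanine, stood at 9 of 47 (19.1%). The lowest shares were those of tyrosine, 3 of 73 (4.11%), and serine, 4 of 62 (6.45%). Methionine tRNA genes had the highest median strength among amino acids with at least 5 regions, 15.3 in −log10 q over 6 regions, and leucine the lowest, 6.41 over 7. Differences between amino acids rest on 2 to 12 regions each and were not tested.

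Few tRNA genes with another one close by held a region. Most such genes were the tyrosine, serine and proline tRNA genes in tandem arrays on chromosome 1. Of the 443 tRNA genes with no other tRNA gene within 1000 bp, 100 held a region (22.6%), against 5 of 133 (3.76%) with another one that close. On chromosome 1, none of 54 tyrosine, 27 serine and 25 proline tRNA genes with such a neighbour held a region. All 5 that did thus lay among the remaining genes with a close neighbour, which are far fewer. The low share therefore describes these chromosome 1 genes, not close tRNA genes in general. Among genes with no such neighbour on any chromosome, proline stood at 9 of 21 (42.9%), tyrosine at 3 of 17 (17.6%) and serine at 4 of 33 (12.1%). Genes in the arrays are near-identical copies, reads from them may not be assignable to 1 place, and the read filter used is not given in the sources used here. Its part in the low shares was not tested.

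**Figure D3:**
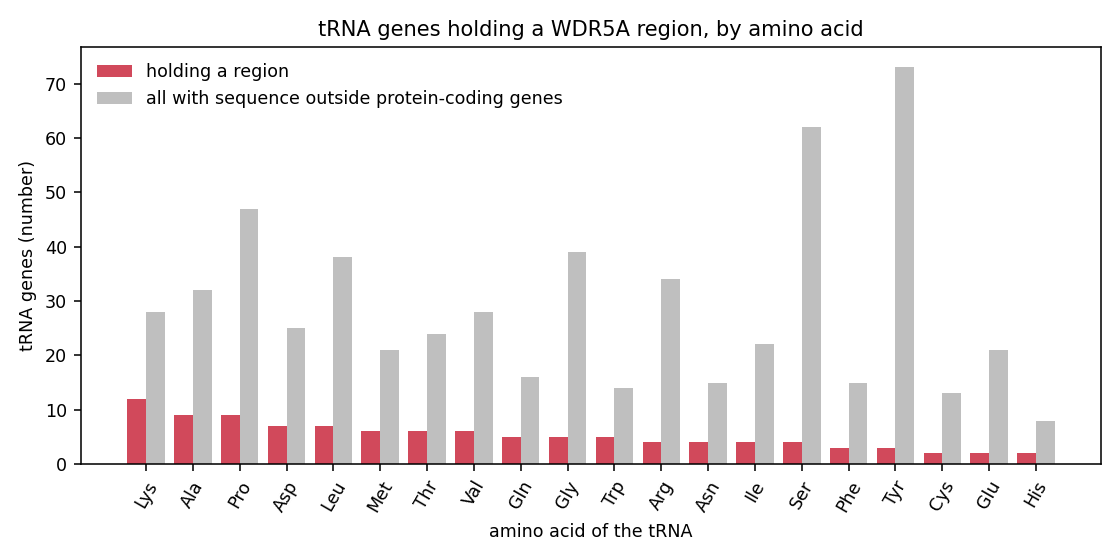
Number of tRNA genes that held a WDR5A region (left bar, red) and of all tRNA genes with sequence outside protein-coding genes (right bar, grey), by the amino acid of the tRNA (x axis). Lysine tRNA genes held the most regions, 12 of 28, and tyrosine tRNA genes, the most numerous at 73, held 3.

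The tRNA genes that held a region lay next to protein-coding genes. Of the 105 regions, 89 (84.8%) were within 250 bp of one, and the median distance was 106 bp. Distances were next taken from the tRNA gene and not from the region, so the next 89 is not the same set. A protein-coding gene within 1 to 250 bp was found for 341 tRNA genes, of which 89 held a region (26.1%). At 251 to 1000 bp the share was 10 of 93 (10.8%), and beyond 1000 bp 2 of 128 (1.56%). Counting only tRNA genes with no other tRNA gene within 1000 bp, the shares were 84 of 326 (25.8%), 10 of 77 (13.0%) and 2 of 29 (6.90%). Of the 14 tRNA genes that overlapped a protein-coding gene, 4 held a region (28.6%), all among the 11 with no such neighbour.

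Sequence within 250 bp of protein-coding genes was richer in regions than the 6.40 per 100 kb of all sequence outside them. Densities were therefore set side by side at equal distance. In the first 100 bp outside protein-coding genes, tRNA gene sequence held 50 regions in 11.4 kb, 437.6 per 100 kb, lncRNA gene sequence 23.7 per 100 kb and the remaining sequence 18.5 per 100 kb. From 101 to 250 bp the densities were 287.5, 23.1 and 14.5 per 100 kb. From 251 to 500 bp they were 287.6, 18.1 and 6.64. From 501 to 1000 bp tRNA sequence held 1 region in 3.40 kb, while lncRNA sequence held 17.2 and the remainder 6.04 per 100 kb. At each of the first 3 distances the tRNA density was above both others. The lncRNA density stood nearer to the rest close to protein-coding genes than farther away.

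The lncRNA regions included the strong ones. Their median −log10 q was 12.1, 10.9 and 12.6 in replicates 1, 2 and 3, and their means ran from 2.47 to 103.5. Of the 172, 22 (12.8%) were among the strongest 5% of all regions, where all 289 had 23 (7.96%). Regions outside the 289 had medians over the 3 lists of 8.23 ± 0.621 inside protein-coding genes (3187 regions), 9.43 ± 0.777 within 500 bp of one (1901 regions) and 11.0 ± 0.599 farther out (1307 regions), with the SD taken over the 3 lists' medians. The lncRNA regions stood at 11.8 ± 0.880 and the tRNA regions at 8.26 ± 0.295 on the same measure. The SDs also hold differences in level between whole lists. In each list the lncRNA median was somewhat above that of the farther regions, which was 11.5, 10.3 and 11.0 in replicates 1, 2 and 3. This difference was not tested. lncRNA regions also lay farther from protein-coding genes than tRNA regions did, with a median of 779.5 bp, 34.3% within 500 bp and 41.9% beyond 1000 bp.

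**Figure D4:**
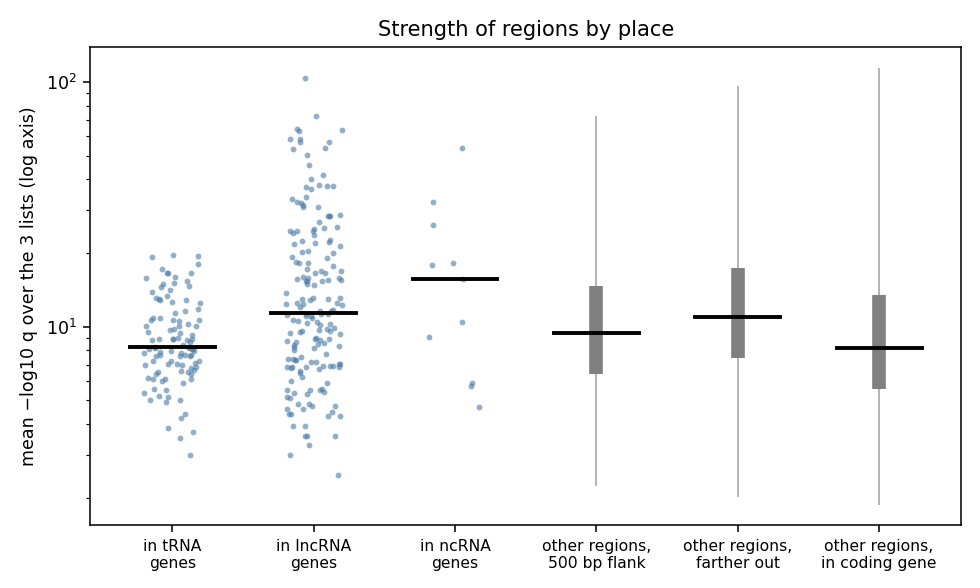
Mean −log10 q over the 3 lists (y axis, log scale) of regions in tRNA, lncRNA and ncRNA genes, 1 point for each region, beside the regions outside the 289, drawn as full range (thin line) and middle 50% (thick line). Black bars are medians; regions in tRNA genes end at 19.7 and those in lncRNA genes reach 103.5.

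The strongest region of all 289 lay in the lncRNA gene AT5G04345, at position 9515714 of chromosome 5, with 101.5, 91.1 and 117.8 in replicates 1, 2 and 3. It was the fourth strongest of the 6684 regions. It lay 149 bp outside TPR3, a gene of the TOPLESS family, whose proteins are corepressors that act with auxin and jasmonate repressors. Further lncRNA regions lay next to other genes of that family. At AT3G03375, 400 bp from TPR2, the region at position 5731119 of chromosome 3 had 74.7, 50.7 and 64.2. At AT1G05197, 246 bp from TPL itself, the region at position 5421279 of chromosome 1 had 56.2, 51.8 and 42.3. Replicate 2 was the lowest list at TPR3 and TPR2 and replicate 3 at TPL. Over all its summits, too, replicate 2 had the lowest median, 6.48 against 7.08 and 6.64 in replicates 1 and 3.

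Of the remaining 15 strongest regions, several had nearest genes that the annotation used here names only by locus. AT2G09320 reached 77.6, 67.1 and 73.2, a mean of 72.6 ± 5.25 (SD, n = 3), at position 17504856 of chromosome 2. It lay 2170 bp from the nearest protein-coding gene, AT2G41930. AT2G09535, 569 bp from AT2G44660, had a mean of 64.5 ± 12.9 (SD, n = 3). AT1G08673, 3636 bp from AT1G64380, had 63.6 ± 6.13 (SD, n = 3). AT5G01475, 1334 bp from AT5G08139, and AT1G05863, 1665 bp from AT1G24265, stood at 58.4 ± 8.94 and 58.3 ± 7.89 (SD, n = 3 each). AT3G03035 had 53.9 ± 10.4, 1095 bp from AT3G15220, and AT1G04407 had 45.8 ± 3.13, 106 bp from AT1G05700 (SD, n = 3 each). These sites were thus up to 3636 bp from any protein-coding gene.

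The others had neighbours with names. AT5G09170 reached 74.3, 45.5 and 51.5, 1230 bp from FP3, and its SD of 15.2 was the largest of the 15. AT1G04453 had 53.7, 62.0 and 55.3, 785 bp from TPS7, a gene of the trehalose phosphate synthase family. The region in the ncRNA gene AT4G39404 had 59.0, 44.5 and 57.4, 179 bp from PLS, the gene of the POLARIS peptide of root growth. AT5G00745 had 52.0, 55.4 and 51.9, 246 bp from LAX1, an auxin influx carrier gene. AT5G03755 had 45.6, 35.8 and 43.4, 1380 bp from PRR5, a pseudo-response regulator of the circadian clock. The spread between lists was smallest at AT5G00745, with an SD of 1.99. SDs of single regions also hold differences in level between whole lists. All 15 ranked among the strongest 5% of the 6684 regions.

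**Figure D5:**
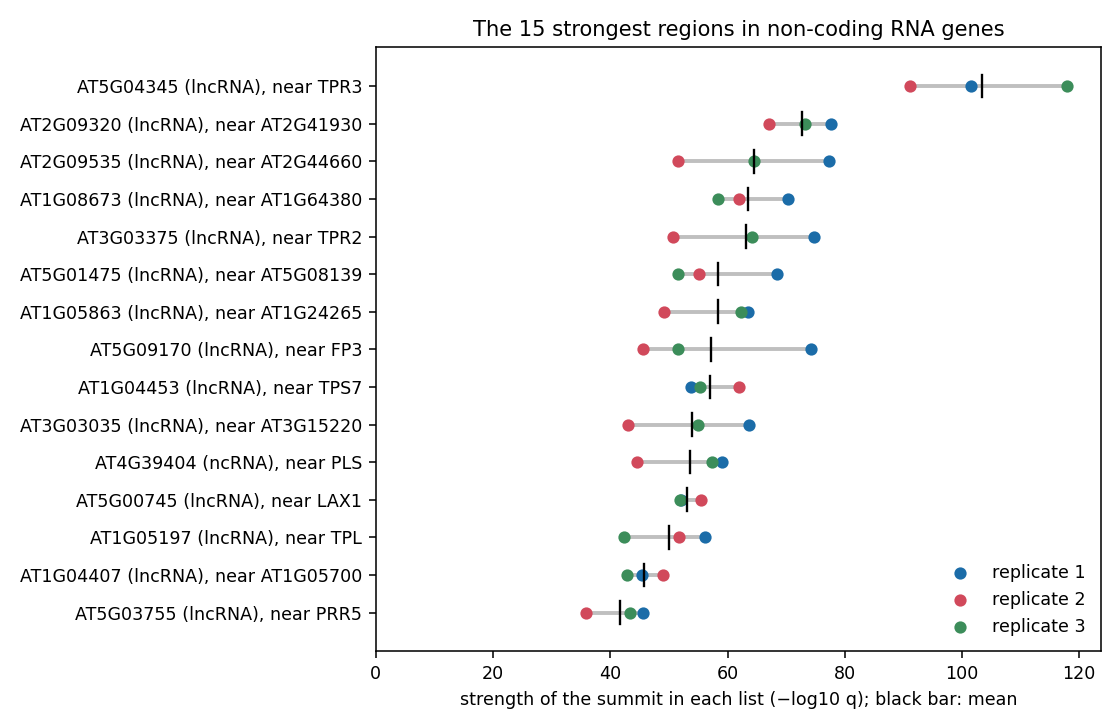
Strength in −log10 q (x axis) of the 15 strongest regions in non-coding RNA genes in replicates 1, 2 and 3 (coloured points, grey line from lowest to highest), with the mean as a black bar. Rows give the host gene, its class and the nearest protein-coding gene; AT5G04345 near TPR3 stands apart at 91.1 to 117.8.

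Some further lncRNA regions beside genes of known regulators were picked out after their values were seen, so their strengths say nothing of such sites in general. AT4G07385 had 34.0, 41.5 and 37.6, 68 bp from DREB1A, a cold-response activator gene. AT2G04015 had 48.0, 28.4 and 35.5, 1541 bp from RGA1, a DELLA repressor gene of gibberellin signalling. AT1G09307, 310 bp from JAZ6, had a mean of 32.3, and AT1G05473, 783 bp from JAZ1, one of 25.6. Both neighbours encode jasmonate repressors. Weaker regions lay beside regulators as well. AT1G04253 near AXR3, an auxin repressor gene, had a mean of 10.2, close to the median of the 289 (9.83). AT5G02375 near MYB16, a transcription factor gene, had one of 3.58. Nearness says nothing of which gene, if either, a region belongs to.

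The hosts among lncRNA genes were slightly longer than the rest, with a median of 382 bp against 328 bp. In 4 classes of gene length, equal in number of genes and going up from 200 bp, 5.16%, 5.78%, 9.43% and 9.26% held a region. Longer genes offer more sequence, and per 100 kb of gene the number of hosts was 23.1, 20.0, 23.5 and 7.67 in the same order. Within the host the region could lie anywhere: 5 equal steps from the nearest end of the gene to its middle held 31, 30, 30, 38 and 43 regions. The gene table gives no strand, so starts and ends were not told apart. Only AT1G26208 and AT3G63445 held 2 regions each. The pair in AT1G26208 had means of 10.4 and 3.29, and the pair in AT3G63445, 1023 bp apart, had 16.5 and 5.49.

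Among genes typed as ncRNA, AT4G39404 was followed by AT1G68872, with 36.4, 21.5 and 39.3 in replicates 1, 2 and 3, 798 bp from SOFL2. AT3G59765 had 29.7, 26.0 and 22.1, 704 bp from SAC9, a phosphoinositide phosphatase gene. The 11 ncRNA regions had a median of 15.6 and reached down to 4.69, at AT3G03695. None of the 8 TAS genes, which give rise to trans-acting small interfering RNAs, had a summit in any list.

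The snRNA and snoRNA regions were few. U4atac, an RNA of the minor spliceosome, had 18.4, 7.99 and 11.2 in replicates 1, 2 and 3, at position 9096415 of chromosome 4. U6.6, a gene for the U6 RNA of the spliceosome core, had 14.2, 11.0 and 5.36 at position 16754859 of chromosome 4. They were the only 2 of 87 genes with U-type symbols, which include the snoRNA genes U3B and U3D, with a summit inside the gene in all 3 lists, and 9 had one in any list. Many of these genes are near-identical copies, and the limit given for tRNA arrays holds for them too. Around snRNA genes the fullest bin lay beside the gene, with 5 regions between 150 and 200 bp from the midpoint of 82 genes. The snoRNA gene AT4G13245 had 9.11, 7.50 and 9.42, and it lay 33 bp from NYC1, a chlorophyll b reductase gene.

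The miRNA genes, with 42.7 kb of sequence outside protein-coding genes, held no region, and at the 6.40 per 100 kb of all such sequence only a few would be met in that length. Of 67 genes from MIR156 to MIR172, 6 had a summit in 1 list and none in more, the highest being 11.7 at MIR158a in replicate 1. Of 37 genes from MIR390 to MIR408, MIR396a alone had one, at 2.04 in replicate 3. Of all 326 miRNA genes, 25 (7.67%) had a region of all 3 lists outside the gene within 500 bp of it. The same held for 42 of 287 snoRNA genes (14.6%), 13 of 82 snRNA genes (15.9%) and 114 of 625 tRNA genes (18.2%).

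The weakest of the 289 regions were AT3G04975 at 3.43, 1.97 and 1.99, AT3G52955 (above), AT2G09795 at 4.17, 3.23 and 1.53, AT1G26208 at 3.62, 2.75 and 3.50 and AT3G61105 at 2.11, 5.92 and 2.52. The region in AT2G09795 lay 18656 bp from any protein-coding gene and also inside a pseudogene. Regions of the same place with a summit in only 2 lists numbered 114, with a median strength of 6.06 over their lists, against 9.83 in the 289, and 125 had a summit in 1 list, with a median of 4.82. Of the 114, 52 lay in lncRNA and 52 in tRNA genes. The list without a summit in the group had its nearest one more than 500 bp away in 106 of them.

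The strongest regions of 2 lists, with means of 69.6 and 57.4, would have ranked among the 15 strongest of the 289, and in both the list without a summit in the group had a strong one farther off. In the ncRNA gene AT4G36648, replicates 1 and 3 had 70.6 and 68.7, and the nearest summit of replicate 2, of 54.1, lay 560 bp away. In AT4G13495, replicates 2 and 3 had 64.3 and 50.5, and the nearest summit of replicate 1, of 71.5, lay 665 bp away. AT4G13495 also held a region of all 3 lists, of 11.4, 7.28 and 8.57. At the gene boundary, 70 regions lay under 25 bp inside a tRNA gene end, with a median of 7.93, and 36 within 25 bp outside one, with a median of 8.26. For lncRNA genes these numbers were 13, with a median of 11.1, and 11, with a median of 10.4. The end stretches make up most of a tRNA gene but a smaller part of an lncRNA gene. The counts inside therefore follow gene length and do not show that regions gather at gene ends.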

How the data were processed

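Per the submitters' processing notes, reads were handled with fastp, Bowtie2 2.3.3, MACS2 2.2.5 and deepTools on the TAIR10 build. The sources used here do not give thresholds, read filters or the use of inputs. The 3 deposited lists give 1 bp summits with a −log10 q, a reading taken from the values, since the weakest summit of all lists then has a q of 0.0500. Peak names differ by replicate, so peaks were taken as called per library. Depth is unknown, so no counting interval or limit of detection is given, and a gene without a summit is one where none was called. A summit's base is the end of its 1 bp interval, 1-based.

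Gene classes, symbols and neighbours came from a RefSeq gene table of assembly TAIR10.1, used for 5021 genes of the 6 classes and 27444 protein-coding genes on 5 chromosomes. Because the assembly names differ, no coordinate of that table is given. The match was checked by moving the regions: 110 of them fell in tRNA genes as given and at most 8 after a shift of 200, 500 or 1000 bp to either side. The amino acid of a tRNA came from its synonyms. The table has no strand, exon or sequence, so the planned promoter motif search was not run and no sequence is shown.

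Regions were built in Python 3.11.15 with pandas 2.3.3 and numpy 2.4.6, and the script was tested on simulated data. The members and lists were chosen with earlier results of these data known. Named regions were the 15 strongest and the 5 weakest, the 3 strongest of each class (all of classes with up to 10), hosts of 2 regions and a list of known RNAs. Regions beside DREB1A, RGA1, JAZ6, JAZ1, AXR3 and MYB16, and those of 2 lists or outside the rule, were named after their values were seen. Those of that list absent from the table as non-coding genes under their names were left out. Nothing in the design allowed a test between groups.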

Additional observations from a re-analysis of the deposited data

How the results depend on the processing

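The number of regions stayed within 1.5 times of 289 (268 to 403) except with stronger summits only (at or above their list's median, 156), at least 250 bp from protein-coding genes (161) or genes of 200 bp or longer (181). Those settings left 42, 16 and 0 in tRNA genes, and stronger summits left 105 in lncRNA genes. The last removes tRNA genes by construction. Shares of all regions, against 4.32%, were 4.67% (chaining at 100 bp), 4.11% (500 bp), 4.03% (at least 2 lists), 4.78% (stronger summits), 2.41% (250 bp away), 2.71% (longer genes) and 4.65% (misc_RNA and antisense genes added). Leaving out each replicate in turn gave 317 to 326 regions, shares of 4.09% to 4.25%, medians of 8.67 to 9.29 in −log10 q and distances of 320.5 to 376 bp to the nearest protein-coding gene. Median strength, against 9.83, was 10.4 with chaining at 100 bp, 8.23 with 2 lists, 15.7 with stronger summits, 10.1 with the strongest summit as position, 11.02 at 250 bp away, 11.6 for longer genes, 10.03 with the added classes and 10.05 with summits read 1 base lower. The median distance, against 349 bp, was 292, 322, 478.5, 314.5, 917 and 779 bp for the first 6 of these. The cause was not tested where construction does not give it. The added classes and the lower base were chosen after seeing the data. With 1 list left out, 1 miRNA gene held a region, without replicate 3, and snoRNA regions numbered 2 in each case. No paired analysis was possible because the input libraries had no file analysed here. The annotation, depth and inputs limit all values: without the inputs, signal at tRNA genes could not be set against background.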

Other observations

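Regions of all 3 lists also lay in RNA genes that the rule did not take. Genes typed as misc_RNA, 508 in the table, held 24 outside protein-coding genes, with a median −log10 q of 10.4. The strongest was in AT4G03125, with 34.8, 42.8 and 31.7 in replicates 1, 2 and 3, 468 bp from CBF1, a cold-response activator gene. Outside protein-coding genes, none lay in an antisense_RNA gene, of which the table has 79. Those within protein-coding genes were not counted. A further 86 regions lay in a non-coding RNA gene and in a protein-coding gene at once, 79 of them in lncRNA and 5 in tRNA genes. Their strongest was at AT2G45685 inside TCP9, a transcription factor gene, with 76.3, 55.2 and 65.9. The lone miRNA gene among them was MIR5629, inside NDL2, with 5.68, 3.86 and 6.39.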
